A study of Sus scrofa with 6 samples.

Results

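The genes described here build the motile axoneme, the microtubule core that makes a cilium beat: axonemal dyneins, the factors that assemble and dock them, and the parts of the nexin link, radial spokes, central pair and doublet lumen. They were listed by name, 54 in all, and 50 of them had a row among the 35670 genes of the count table. CCDC114, HYDIN, TEKT4 and PIFO had none under their symbols and were not analysed here, so docking was represented by ARMC4 alone. Messenger RNA had been counted in tissue of the pig (Sus scrofa) ampulla, the oviduct segment where fertilisation takes place, in 3 early luteal libraries, from the phase in which corpora lutea form, and 3 post-ovulatory libraries. All samples were labelled as ampulla tissue of females, and the labels gave no breed, age or treatment and did not say whether the replicates came from separate animals. P-values therefore measure the spread between these libraries, which may be technical.

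A motile cilium holds a ring of doublet microtubules around a central pair. Dynein arms on each doublet walk along the neighbouring one and use ATP to do so. Radial spokes and the nexin-dynein link turn that sliding into a bend, and cytoplasmic factors fold and assemble the arms before they enter the cilium. In the oviduct, multiciliated cells of the lining alternate with secretory cells, and their beat moves the egg and the early embryo. The genes of the axoneme are switched on together, under the transcription factor FOXJ1 and the RFX factors, in cells that leave the cycle to become multiciliated.

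Axoneme transcripts were present in quantity in every library. The 50 genes took 0.930%, 0.860% and 0.833% of all counts in early luteal replicates 1, 2 and 3, against 0.942%, 0.687% and 0.890% in post-ovulatory replicates 1, 2 and 3. Their summed level was 8404, 9670.2 and 8174 CPM in the early luteal replicates, against 10305, 6380.1 and 8794 CPM in the post-ovulatory replicates, where CPM is the count scaled to a common library size with edgeR's TMM factors. The 2 stages overlapped, with means of 8749 ± 806 CPM in early luteal, against 8493 ± 1980 CPM in post-ovulatory tissue (SD, n = 3 each), a ratio of 1.03. The lowest count of any member in any library was 39, for SPAG16 in post-ovulatory replicate 2, so all 50 passed the filter on low counts. In whole tissue, fewer ciliated cells and less of these RNAs per ciliated cell cannot be told apart.

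Library totals lay between 7370723 and 30954222 counts, and 1 library, early luteal replicate 2, was far from the rest: its score on the first principal component was 175.9, where the other 5 lay between -51.0 and 2.34, and that component held 56.0% of the variance. The 8 smooth muscle markers summed to 1635 to 12155 CPM in early luteal, against 3754 to 6987 CPM in post-ovulatory libraries, a 7.44-fold range, where the axoneme genes spanned 1.62-fold. The 8 markers of secretory epithelium ran from 2154 to 4003 CPM in early luteal, against from 1506 to 14417 CPM in post-ovulatory libraries. A single gene, OVGP1, whose values are given below, made up most of that sum in post-ovulatory replicates 1 and 3, where the sum was highest. The 6 general epithelial markers summed to 1547 to 2065 CPM in early luteal, against 1417 to 2089 CPM in post-ovulatory libraries, a 1.47-fold range. The mean over these markers of log2 CPM, centred per gene, was -0.87 in early luteal replicate 2 and -0.15 to 0.42 in the other libraries. For the axoneme genes that mean was -0.058 in early luteal replicate 2. The 9 stromal markers lay at 1205 to 1357 CPM in early luteal, against 1567 to 2984 CPM in post-ovulatory libraries, and the 7 endothelial markers at 396 to 565 CPM in early luteal, against 358 to 575 CPM in post-ovulatory libraries. The 7 markers of T and NK cells summed to 19.4 to 84.3 CPM in early luteal, against 33.3 to 72.2 CPM in post-ovulatory libraries, and the 7 of macrophages and dendritic cells to 28.8 to 81.4 CPM in early luteal, against 48.4 to 95.9 CPM in post-ovulatory libraries. The 6 of B and plasma cells summed to 11.02 to 262 CPM in early luteal, against 13.3 to 549.9 CPM in post-ovulatory libraries. No marker with a row of general or secretory epithelium, smooth muscle, stroma or endothelium was at 0 in any library, while single immune markers were. The listed markers PAX8, MSLN, MUC16 and DMBT1 (secretory), KRT19 (general epithelial) and VWF (endothelial) had no row under their symbols and are not in these sums. The part of these cell types in the axoneme levels was not tested.

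**Figure D1:**
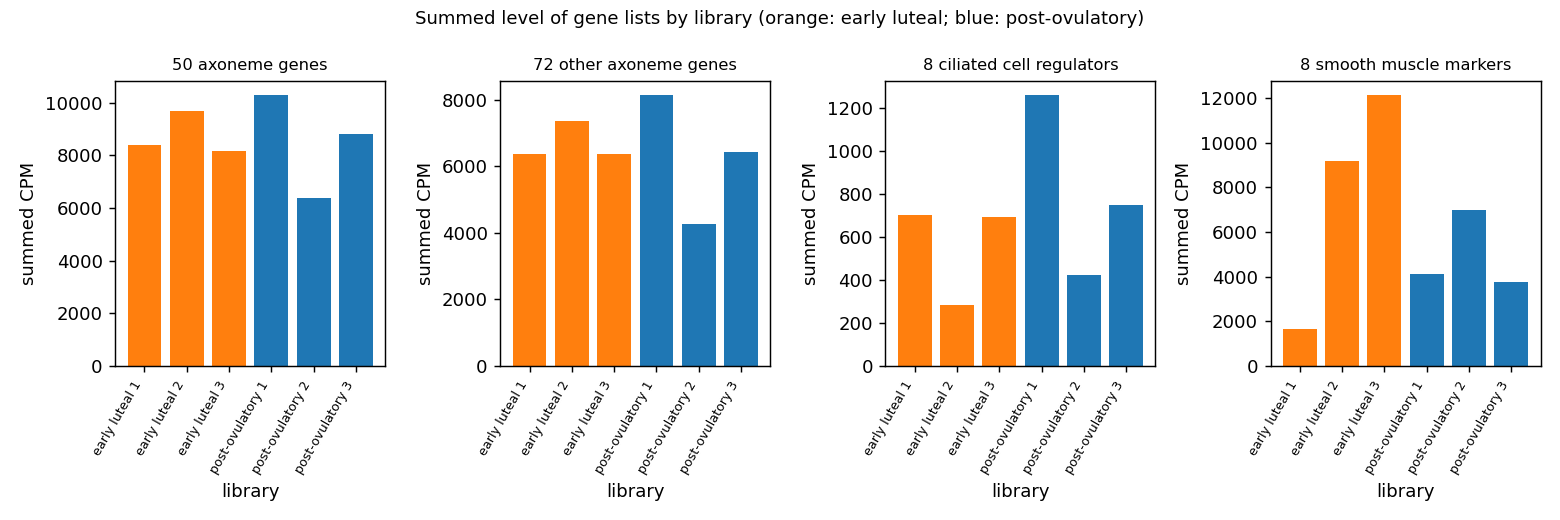
Summed CPM of 50 axoneme genes, 72 other axoneme genes, 8 regulators of ciliated cells and 8 smooth muscle markers in each library (bars; early luteal in orange, post-ovulatory in blue, axes from 0). The 50 axoneme genes span 1.62-fold over the 6 libraries and overlap between the stages, while the regulators peak in post-ovulatory replicate 1 and the muscle markers span 7.44-fold.

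No axoneme gene passed the threshold between the stages. Every fold change sets early luteal over post-ovulatory tissue and comes from edgeR's quasi-likelihood test, and the threshold was a Benjamini-Hochberg adjusted p of 0.05 over all 17920 tested genes. The test called 0 of 50 members (adjusted p from 0.696 to 0.996), and 0% of all tested genes. At an unadjusted p under 0.05 it counted 0 members, against 7.11% of all tested genes (1275), and DESeq2 called 0 members, against 1.03% of the genes it gave an adjusted p. Of the 50 members, 25 had a lower and 25 a higher fitted level in early luteal tissue, where 51.8% of all tested genes had a lower one. The median log2 fold change was 0.0024 over the members and -0.026 over all tested genes. Without early luteal replicate 2, 26 members were lower, their median was -0.019, and 0 had an unadjusted p under 0.05. In 47 of the 50 the difference between the stage means was smaller than the spread within a stage (pooled SD of log2 CPM), which was so for 62.4% of all tested genes. In 2 members, DNAH3 and CFAP70, the stages did not overlap, both with early luteal tissue above. Over all tested genes 17.2% did not overlap, 7.58% with early luteal tissue above and 9.6% with it below.

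The intervals say how large a difference these libraries leave room for. The SE of a member's log2 fold change ran from 0.24 to 0.57, with a median of 0.34, against 0.48 over all tested genes. For 27 of the 50 members the 95% interval of the fold change lay wholly within 2-fold either way, and this held for 19.6% of all tested genes. The members were read at a higher level than most genes, with a median of 157.96 CPM against 16.4 CPM. The lowest bound of any member was -2.14, for RSPH9, and the highest was 2.02, for CFAP43, on the log2 scale. All 50 intervals included 0.

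**Figure D2:**
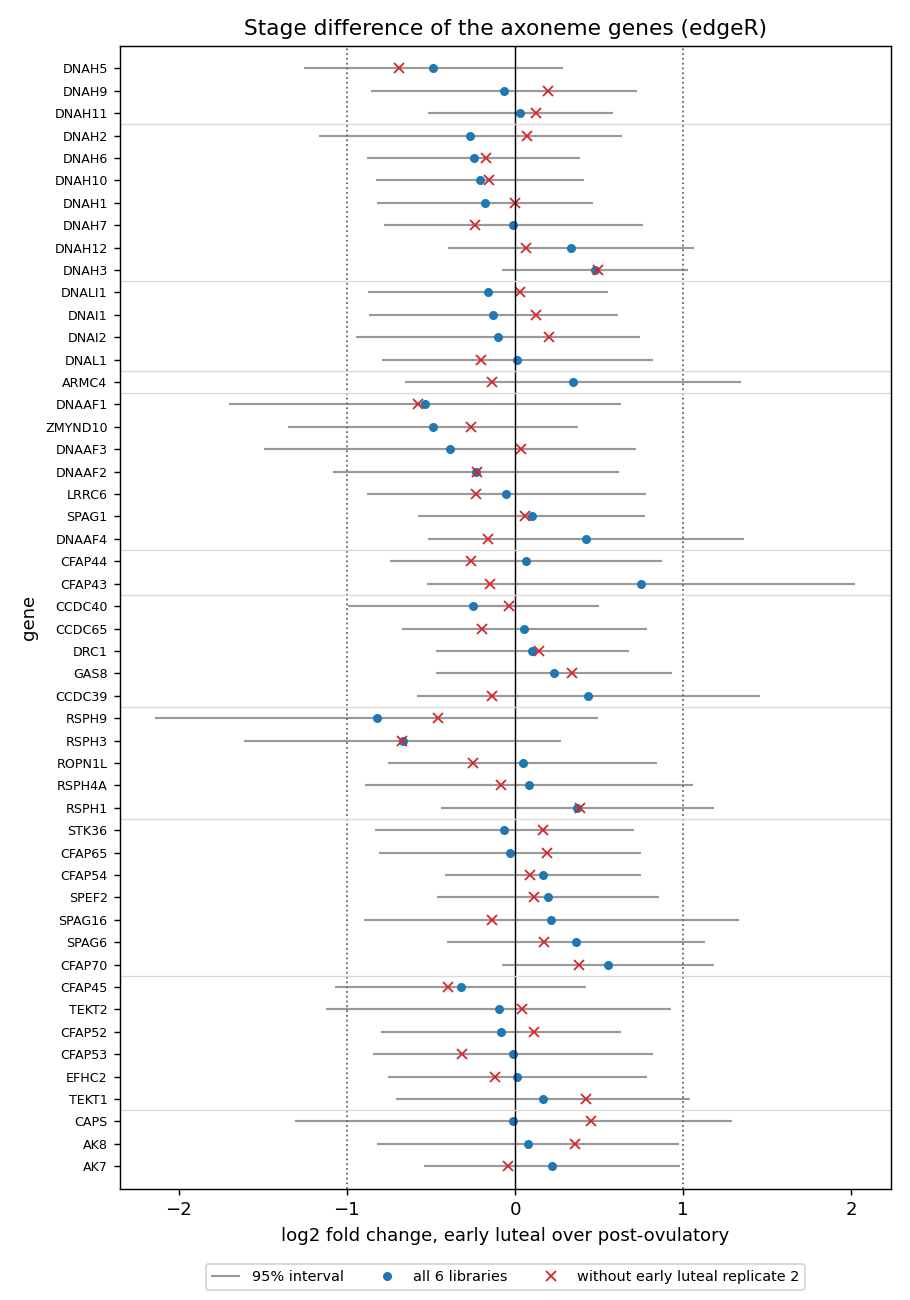
Log2 fold change of each axoneme gene, early luteal over post-ovulatory (edgeR; blue points, all 6 libraries; grey bars, 95% interval; red crosses, without early luteal replicate 2; dotted lines, 2-fold). Genes are grouped by role from outer arm heavy chains at the top to other ciliary genes at the bottom, all 50 intervals include 0, and 27 lie within the dotted lines.

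Outer arm dyneins set the beat frequency of a cilium. Their heavy chains are the motors DNAH5, DNAH9 and DNAH11. DNAH5 (ENSSSCG00000032827; Sscrofa11.1 chromosome 16, 3114267 to 3366189 in RefSeq) stood at 327, 391 and 213 CPM in early luteal replicates 1, 2 and 3 and at 544, 308 and 453 CPM in post-ovulatory replicates 1, 2 and 3. The stages overlapped, because post-ovulatory replicate 2 lay below 2 of the early luteal libraries (log2 fold change -0.48 ± 0.34, SE; edgeR adjusted p = 0.769), and without early luteal replicate 2 the log2 fold change was -0.69. DNAH9 stood at 384, 159 and 252 CPM in early luteal, against 247, 273 and 311 CPM in post-ovulatory replicates, so early luteal tissue held both its highest and its lowest value. DNAH11 varied 1.32-fold over the 6 libraries, at 171.3, 129.8 and 148 CPM in early luteal, against 148, 160.3 and 132 CPM in post-ovulatory replicates. Its log2 fold change of 0.03 ± 0.24 (SE) had a 95% interval of -0.52 to 0.58.

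Inner arm dyneins shape the bend, and their 7 heavy chains here had log2 fold changes between -0.26 (DNAH2) and 0.48 (DNAH3). DNAH3 (ENSSSCG00000046747; chromosome 3, 24911160 to 25127017) stood at 193, 206 and 237 CPM in early luteal, against 150.1, 136 and 173 CPM in post-ovulatory replicates. Each early luteal library lay above each post-ovulatory one, by means of 212 ± 22.6 against 153 ± 18.4 CPM (SD, n = 3 each), and the difference missed the threshold (log2 fold change 0.48 ± 0.24, SE; edgeR adjusted p = 0.702). DNAH10, a motor of the 2-headed inner arm, stood at 215, 193 and 221 CPM in early luteal, against 311, 194.2 and 223 CPM in post-ovulatory replicates. All but post-ovulatory replicate 1 lay within a narrow band (log2 fold change -0.21 ± 0.27, SE; edgeR adjusted p = 0.866; -7.24e-05 without that library). DNAH2, its partner in that arm, was low in 1 library alone, with 277, 89.1 and 205 CPM in early luteal against 229.5, 242 and 216 CPM in post-ovulatory replicates. The other single-headed arm genes overlapped between stages: DNAH1, DNAH6, DNAH7 and DNAH12 averaged 139, 175, 100.3 and 176 CPM in early luteal against 157.8, 207, 101 and 140.2 CPM in post-ovulatory tissue.

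Intermediate and light chains tie the motors to the doublet and tune them. DNAI2, an outer arm intermediate chain, stood at 174, 73.7 and 170.2 CPM in early luteal, against 125, 132 and 190.5 CPM in post-ovulatory replicates (log2 fold change -0.10 ± 0.37, SE; edgeR adjusted p = 0.959). DNALI1, an inner arm light intermediate chain, stood at 135.3, 79.6 and 119 CPM in early luteal, against 161, 91.9 and 121 CPM in post-ovulatory replicates (-0.16 ± 0.31, SE; edgeR adjusted p = 0.913). In DNAI2, DNALI1 and DNAI1 early luteal replicate 2 was the lowest of the 6 libraries. The outer arm light chain DNAL1 ran the other way, at 97.2, 141 and 93.7 CPM in early luteal, against 157, 66.7 and 105 CPM in post-ovulatory replicates, with post-ovulatory replicate 2 lowest. ARMC4 (listed as ODAD2 in the symbol table), which docks outer arms on the doublet, stood at 298, 596 and 250.1 CPM in early luteal, against 442, 185 and 276 CPM in post-ovulatory replicates. Its fold change rested on 1 library: it was 0.34 ± 0.44 (SE; edgeR adjusted p = 0.861) with all 6 and -0.14 without early luteal replicate 2.

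Assembly factors act in the cytoplasm, where they fold dynein chains with chaperones, and are not parts of the finished axoneme. Of the 7, 5 had a lower and 2 a higher fitted level in early luteal tissue, with a median log2 fold change of -0.23. ZMYND10 stood at 206, 114 and 202 CPM in early luteal, against 353, 156 and 223 CPM in post-ovulatory replicates (log2 fold change -0.49 ± 0.38, SE; edgeR adjusted p = 0.781). Its stages overlapped, and early luteal replicate 2 and post-ovulatory replicate 1 stood at the ends. Leaving out either one brought its log2 fold change nearer 0, to -0.26 without the early luteal library and -0.13 without the post-ovulatory one. DNAAF1, a leucine-rich factor, stood at 34.8, 36.1 and 31.5 CPM in early luteal, against 94.3, 21.3 and 32.7 CPM in post-ovulatory replicates (-0.53 ± 0.51, SE; edgeR adjusted p = 0.818). Its lower mean in early luteal tissue came from post-ovulatory replicate 1, and without that library the log2 fold change was 0.32. DNAAF2 had the same shape, at 50.4, 45.4 and 41.3 CPM in early luteal, against 83.8, 31.0 and 46.1 CPM in post-ovulatory replicates. DNAAF3 and DNAAF4 were set apart by early luteal replicate 2 in opposite directions. DNAAF3 stood at 143, 36.2 and 162 CPM in early luteal, against 140.2, 144 and 162 CPM in post-ovulatory replicates, while DNAAF4 stood at 52.9, 138 and 57.7 CPM in early luteal, against 69.4, 45.2 and 70.5 CPM in post-ovulatory replicates. LRRC6 (listed as DNAAF11) and the co-chaperone SPAG1 averaged 154 and 126 CPM in early luteal against 159 and 118 CPM in post-ovulatory tissue.

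CCDC39 and CCDC40 form the molecular ruler that spaces inner arms and spokes along the doublet, and DRC1, CCDC65 and GAS8 belong to the nexin-dynein regulatory complex. CCDC39 (ENSSSCG00000011768; chromosome 13, 118623787 to 118773205) stood at 154, 366 and 145 CPM in early luteal, against 228, 103 and 161 CPM in post-ovulatory replicates (log2 fold change 0.44 ± 0.45, SE; edgeR adjusted p = 0.830). Early luteal replicate 2 alone placed its early luteal mean higher, and without that library the log2 fold change was -0.14. CCDC40 stood at 203, 103 and 146 CPM in early luteal, against 217, 134 and 186 CPM in post-ovulatory replicates, with early luteal replicate 2 lowest. DRC1 varied 1.40-fold, at 175, 155 and 164 CPM in early luteal, against 188.7, 135.1 and 136 CPM in post-ovulatory replicates (95% interval of the log2 fold change -0.47 to 0.68). CCDC65 and GAS8 averaged 161 and 173 CPM in early luteal against 155 and 148 CPM in post-ovulatory tissue. CFAP43 and CFAP44 tether the 2-headed inner arm to the doublet. CFAP43 (ENSSSCG00000010609; chromosome 14, 115073529 to 115201965) stood at 136, 669.8 and 239 CPM in early luteal, against 234, 138 and 249 CPM in post-ovulatory replicates. It had the largest positive log2 fold change of the members, 0.75 ± 0.56 (SE; edgeR adjusted p = 0.778), and without early luteal replicate 2 that value was -0.15. CFAP44 stood at 484, 839 and 468 CPM in early luteal, against 682, 389 and 642 CPM in post-ovulatory replicates (0.07 ± 0.35, SE; edgeR adjusted p = 0.972), and its value without that library was -0.26.

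Radial spokes carry signals from the central pair to the arms. RSPH9, a spoke head subunit, had the largest negative log2 fold change of all members, at 20.3, 6.06 and 18.8 CPM in early luteal, against 45.9, 14.7 and 19.8 CPM in post-ovulatory replicates (-0.82 ± 0.57, SE; edgeR adjusted p = 0.769). The difference was carried by early luteal replicate 2 at the low end and post-ovulatory replicate 1 at the high end, and the other 4 libraries lay between 14.7 and 20.3 CPM. The log2 fold change was -0.46 without early luteal replicate 2 and -0.20 without post-ovulatory replicate 1. RSPH3, a spoke stalk protein, stood at 24.6, 25.7 and 27.1 CPM in early luteal, against 67.0, 21.9 and 34.2 CPM in post-ovulatory replicates (-0.67 ± 0.41, SE; edgeR adjusted p = 0.738). Its early luteal libraries were nearly level, and they lay above post-ovulatory replicate 2. Without post-ovulatory replicate 1 its log2 fold change was -0.13. RSPH4A, another spoke head subunit, stood at 287, 391 and 292 CPM in early luteal, against 510.4, 157.9 and 249.7 CPM in post-ovulatory replicates (0.08 ± 0.43, SE; edgeR adjusted p = 0.972). Its highest and lowest values both lay in the post-ovulatory stage. RSPH1 stood at 143, 226 and 332 CPM in early luteal, against 222, 140.3 and 180.1 CPM in post-ovulatory replicates, and ROPN1L, a spoke-associated protein, averaged 294 CPM in early luteal against 285 CPM in post-ovulatory tissue.

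The central pair apparatus sets the plane of the beat, and 5 of its 7 genes had a higher fitted level in early luteal tissue, none past the threshold, with a median log2 fold change of 0.20. CFAP70 (ENSSSCG00000010298; chromosome 14, 76075269 to 76199898) stood at 249.6, 352 and 266 CPM in early luteal, against 236, 160.3 and 196 CPM in post-ovulatory replicates. The stages did not overlap, with means of 289 ± 55.03 against 197 ± 37.7 CPM (SD, n = 3 each; log2 fold change 0.55 ± 0.28, SE; edgeR adjusted p = 0.696, the lowest of the members), and the log2 fold change was 0.38 without early luteal replicate 2. The gap between the nearest libraries was small, 249.6 in early luteal replicate 1 against 236 CPM in post-ovulatory replicate 1. CFAP54 stood at 386, 393 and 292 CPM in early luteal, against 297, 340.4 and 318 CPM in post-ovulatory replicates (0.17 ± 0.25, SE; edgeR adjusted p = 0.885). Early luteal replicate 3 was its lowest library, so the stages overlapped. SPEF2, SPAG6, CFAP65 and the kinase STK36 averaged 279, 133, 195 and 43.4 CPM in early luteal against 243, 103, 199 and 45.5 CPM in post-ovulatory tissue. SPAG16 had the fewest counts of the members, with 5.65, 11.05 and 6.37 CPM in early luteal, against 6.91, 4.92 and 7.95 CPM in post-ovulatory replicates.

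Microtubule inner proteins line the lumen of the doublets and stiffen them. CFAP45 stood at 218, 259.6 and 230.3 CPM in early luteal, against 413, 187 and 287 CPM in post-ovulatory replicates (log2 fold change -0.32 ± 0.33, SE; edgeR adjusted p = 0.827). Post-ovulatory replicate 1 stood above the other 5 libraries, and post-ovulatory replicate 2 below them. Without post-ovulatory replicate 1 the log2 fold change of CFAP45 was -0.018. CFAP52 and CFAP53 averaged 129.6 and 219 CPM in early luteal against 137 and 221 CPM in post-ovulatory tissue. The tektins TEKT1 and TEKT2 averaged 116.4 and 45.1 CPM in early luteal against 104 and 48.3 CPM in post-ovulatory tissue, and EFHC2 averaged 38.0 CPM in early luteal against 37.6 CPM in post-ovulatory tissue. TEKT2 was high in post-ovulatory replicate 1 (84.8 CPM) and between 27.3 and 56.5 CPM in the other 5 libraries. Of the other ciliary genes, the adenylate kinase AK7 stood at 272, 478 and 327 CPM in early luteal, against 369, 212 and 345 CPM in post-ovulatory replicates (0.22 ± 0.33, SE; edgeR adjusted p = 0.884), with early luteal replicate 2 highest. AK8 averaged 33.1 CPM in early luteal against 31.4 CPM in post-ovulatory tissue. CAPS, a calcium-binding protein abundant in ciliated cells, stood at 109.8, 19.7 and 122 CPM in early luteal, against 78.5, 71.3 and 104 CPM in post-ovulatory replicates, so the fitted levels were near equal (-0.01 ± 0.57, SE) over a wide spread.

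**Figure D3:**
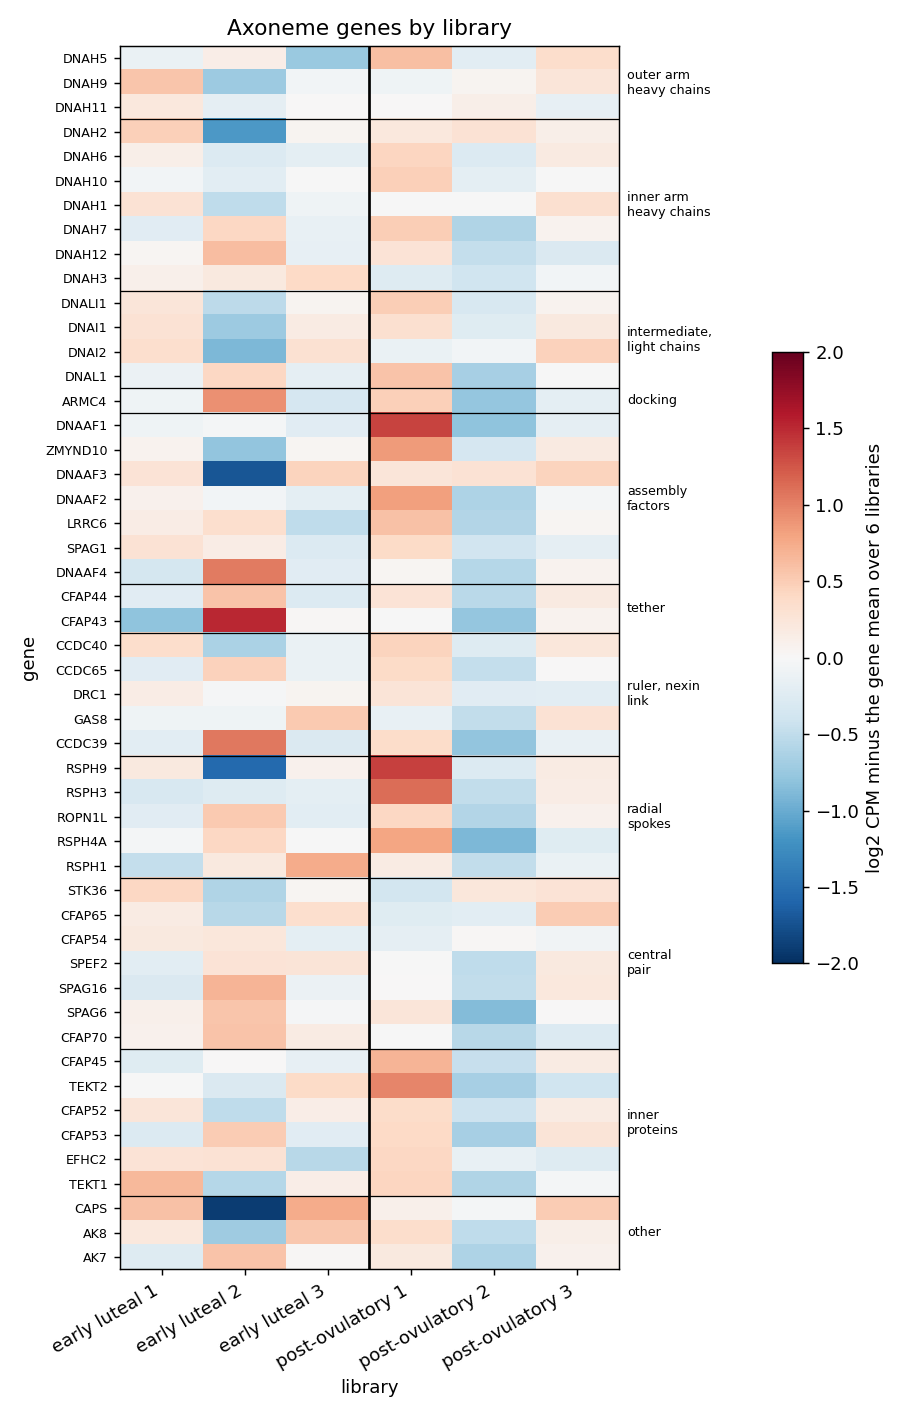
Log2 CPM of each axoneme gene in each library, minus that gene's mean over the 6 libraries (red higher, blue lower; thick line between early luteal libraries on the left and post-ovulatory ones on the right; thin lines between roles). Post-ovulatory replicate 1 is mostly red and replicate 2 mostly blue, and early luteal replicate 2 holds both the deepest blue (CAPS) and the deepest red (CFAP43).

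The highest and the lowest summed axoneme levels both came from post-ovulatory libraries. Post-ovulatory replicate 1 was the highest of the 6 libraries in 21 of the 50 members, against 20.3% of all tested genes, and post-ovulatory replicate 2 the lowest in 28 of 50, against 12.8%. Without early luteal replicate 2, post-ovulatory replicate 1 was the highest of 5 in 30 members (27.4% of all tested genes) and post-ovulatory replicate 2 the lowest in 38 (18.9%). The mean over members of log2 CPM, centred per gene, was 0.044, -0.058 and -0.0043 in early luteal replicates 1, 2 and 3 and 0.34, -0.39 and 0.071 in post-ovulatory replicates 1, 2 and 3. The early luteal libraries lay between those extremes. Some markers of other cell types were also at an end in post-ovulatory replicate 2. It had the highest sums of the stromal (2984 CPM) and endothelial markers (575 CPM) of the 6 libraries. It had the lowest of the general (1417 CPM) and secretory epithelial markers (1506 CPM). Post-ovulatory replicate 1 had the lowest endothelial sum (358 CPM), but its stromal sum (2531 CPM) was exceeded only by that of post-ovulatory replicate 2. The smooth muscle sum had another order, highest in early luteal replicate 3 (12155 CPM) and lowest in early luteal replicate 1 (1635 CPM). It was 6987 CPM in post-ovulatory replicate 2. By the mean of centred log2 CPM, post-ovulatory replicate 2 was again highest for stromal (1.02) and endothelial markers (0.89) and lowest for secretory ones (-0.81). By that measure the lowest general epithelial and endothelial values were those of early luteal replicate 2 (-0.87 and -0.72), where all tested genes averaged -0.37. The part of these markers in the axoneme levels was not tested. Without post-ovulatory replicate 1 the median log2 fold change of the members was 0.23, with 17 of 50 lower, and without post-ovulatory replicate 2 it was -0.15, with 33 of 50 lower.

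Genes that make a cell multiciliated were mostly at their highest in post-ovulatory replicate 1 as well, in 6 of the 8 measured. None was called by edgeR, 3 had an unadjusted p under 0.05 with a lower level in early luteal tissue (MCIDAS, GMNC and CCNO), and 3.54% of all tested genes did so. Without early luteal replicate 2, 1 of the 8 had an unadjusted p under 0.05 (edgeR), against 1540 of 18493 tested genes in either direction. MCIDAS, a coactivator that starts the programme, stood at 1.03, 0 and 0 CPM in early luteal, against 59.1, 0.378 and 4.50 CPM in post-ovulatory replicates. CCNO, needed for the amplification of centrioles, stood at 3.53, 3.77 and 1.79 CPM in early luteal, against 95.7, 1.39 and 6.48 CPM in post-ovulatory replicates. The stages of MCIDAS and of CCNO overlapped, and both were far highest in post-ovulatory replicate 1. The 0.378 CPM of MCIDAS is the level of 3 counts in post-ovulatory replicate 2. MYB, a factor of the same early phase, stood at 79.7, 99.2 and 91.0 CPM in early luteal, against 183, 58.0 and 77.3 CPM in post-ovulatory replicates. FOXJ1 stood at 412, 78.8 and 409 CPM in early luteal, against 653, 199.5 and 428 CPM in post-ovulatory replicates (log2 fold change -0.51 ± 0.63, SE; edgeR adjusted p = 0.860), and its log2 fold change without early luteal replicate 2 was -0.057. GMNC, the geminin-like factor upstream of the others, had stages that did not overlap, at 22.0, 24.4 and 13.0 CPM in early luteal, against 72.4, 39.3 and 55.2 CPM in post-ovulatory replicates (-1.49 ± 0.36, SE; edgeR adjusted p = 0.571; DESeq2 adjusted p = 0.0411). RFX2, RFX3 and TP73 overlapped, with means of 67.5, 17.5 and 62.1 CPM in early luteal against 81.1, 17.3 and 69.9 CPM in post-ovulatory tissue. The secretory gene OVGP1 had another order over the libraries, at 291, 1012 and 2351 CPM in early luteal, against 7289.95, 156 and 10668.5 CPM in post-ovulatory replicates. The part of these regulators in the axoneme levels was not tested.

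Axoneme genes outside the 50 gave a like picture. Of 78 further genes of dynein arms, spokes, the central pair and the doublet lumen, 72 had a row and 70 passed the filter. The threshold was passed by 0 with edgeR and 0 with DESeq2. Of the 70, 34 were lower and 36 higher in early luteal tissue, and the median log2 fold change was 0.0031. Without early luteal replicate 2, 3 had an unadjusted p under 0.05 (edgeR), against 1540 of 18493 tested genes. With all 6 libraries, 1 had an unadjusted p under 0.05 and a lower level in early luteal tissue, against 3.54% of all tested genes. That gene, CCDC13, stood at 45.0, 21.2 and 35.4 CPM in early luteal, against 76.9, 52.6 and 64.6 CPM in post-ovulatory replicates, with no overlap (-0.93 ± 0.33, SE; edgeR adjusted p = 0.677). No other of the 70 had stages without overlap, where 17.2% of all tested genes did. The next lowest p-values belonged to RSPH14, RIBC1 and ODAD3, with log2 fold changes of -0.95, -0.58 and -0.84 (edgeR adjusted p = 0.698, 0.711 and 0.716). RSPH14 and ODAD3 were highest in post-ovulatory replicate 1, at 45.3 and 134.7 CPM, where the other libraries reached at most 17.2 and 65.6 CPM. Further markers of ciliated cells, such as TPPP3 and TUBB4B, were lower in early luteal tissue in 5 of 10, with a median log2 fold change of 0.0033 and 0 past the threshold (edgeR). Their log2 fold changes ran from -1.03 to 0.62. In 1 of the 10 the stages did not overlap, with early luteal tissue above, as in 7.58% of all tested genes. The listed markers FAM183A and TMEM190 had no row under their symbols.

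Early luteal replicate 2 departed from the other libraries across the whole table, in both directions, and the axoneme genes did so with smaller deviations. That library was the lowest or the highest of 6 in 66.4% of all tested genes. It was the lowest in 18 of the 50 members, against 39.5% of all tested genes, and the highest in 15 of 50, against 26.9%, shares near the background. Over the members, the SD of centred log2 CPM was 0.71 in that library and 0.22 to 0.38 in the other 5. Over all tested genes the same SD was 1.27 and 0.54 to 0.78, so the spread was widest in the same library and larger over all genes than over the members. In that library 1179 of all tested genes and 0 members had no count. The members are read at a higher level than most genes, and the part of that level in their smaller spread was not tested. The members at least 1 log2 unit below the mean of the other 5 libraries were CAPS (-2.27), DNAAF3 (-2.04), RSPH9 (-1.84), DNAH2 (-1.38) and DNAI2 (-1.08), against 29.6% of all tested genes. Those at least 1 unit above were CFAP43 (1.80), CCDC39 (1.26), DNAAF4 (1.24) and ARMC4 (1.09), against 13.2%. The regulators FOXJ1, TP73 and RFX2 were also low in that library (-2.32, -1.77 and -1.44), and RFX3 was high (0.85).

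**Figure D4:**
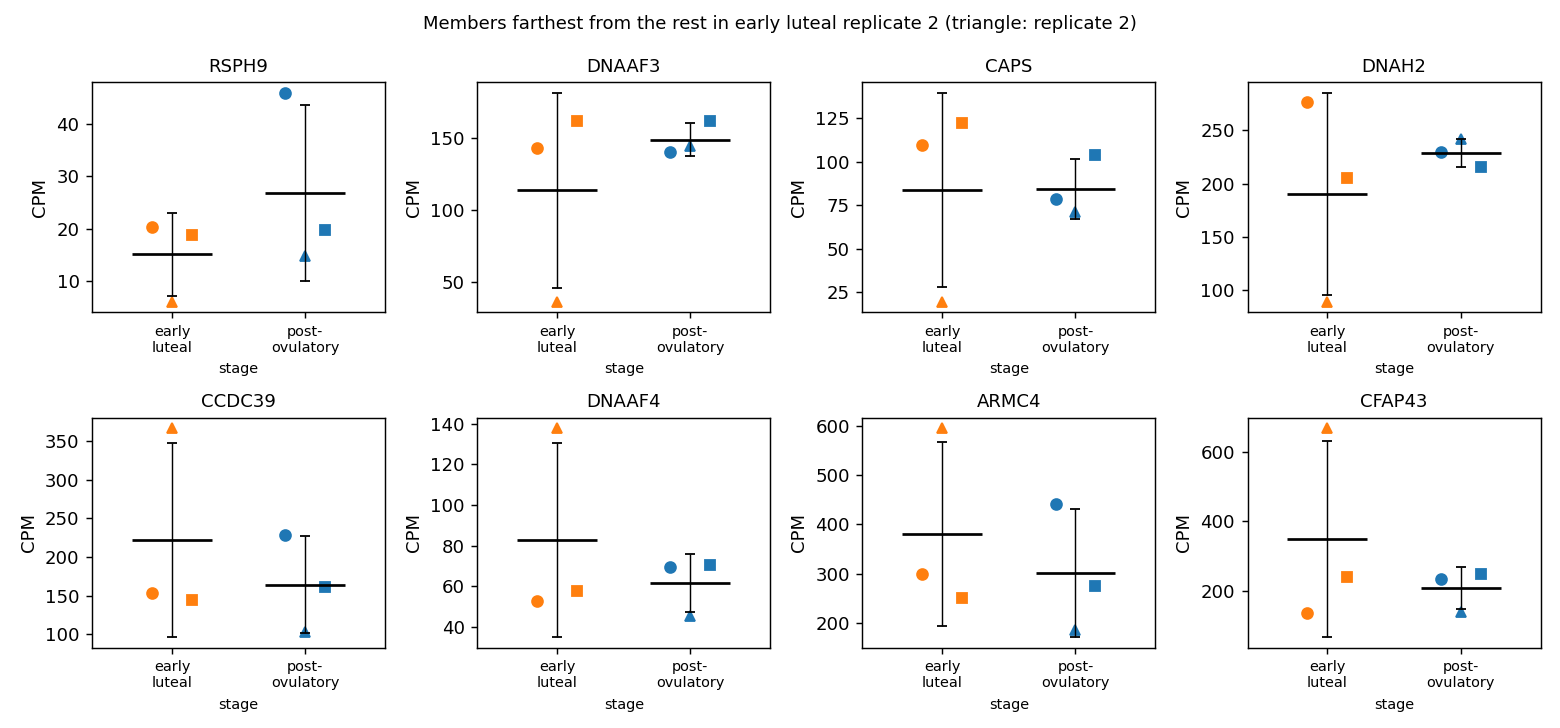
CPM of the 4 axoneme genes lowest and the 4 highest in early luteal replicate 2 relative to the other libraries (circles, triangles and squares are replicates 1, 2 and 3; lines, mean; bars, SD, n = 3; axes do not start at 0). Early luteal replicate 2 is the lowest of 6 in the upper row, such as CAPS at 19.7 CPM, and the highest of 6 in the lower row, such as CFAP43 at 669.8 CPM.

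Ratios between members that work together describe the same library. The 8 pairs were chosen after these values had been seen and hold several of the members named above, so they show nothing particular to partners. Only the change of a ratio between libraries is read, since its size also depends on transcript length. The ratio of CCDC39 to CCDC40 CPM was 0.757, 3.57 and 0.994 in early luteal and 1.05, 0.771 and 0.862 in post-ovulatory replicates, so the ruler subunits kept within 1.39-fold in 5 libraries and stood 4.14 times the median of those 5 in early luteal replicate 2. The spoke head ratio of RSPH9 to RSPH4A was 0.0708, 0.0155 and 0.0645 in early luteal and 0.0899, 0.0934 and 0.0792 in post-ovulatory replicates. The inner arm ratio of DNAH2 to DNAH10 was 1.29, 0.461 and 0.927 in early luteal and 0.738, 1.25 and 0.970 in post-ovulatory replicates. The ratio of ZMYND10 to LRRC6, which bind each other, was 1.24, 0.598 and 1.92 in early luteal and 1.58, 1.56 and 1.45 in post-ovulatory replicates. By that choice, early luteal replicate 2 lay outside the range of the other 5 libraries in 7 of the 8 pairs, and no share over other pairs of genes was computed. The exception was DNAI1 to DNAI2, at 0.554, 0.647 and 0.521 in early luteal and 0.782, 0.503 and 0.474 in post-ovulatory replicates.

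**Figure D5:**
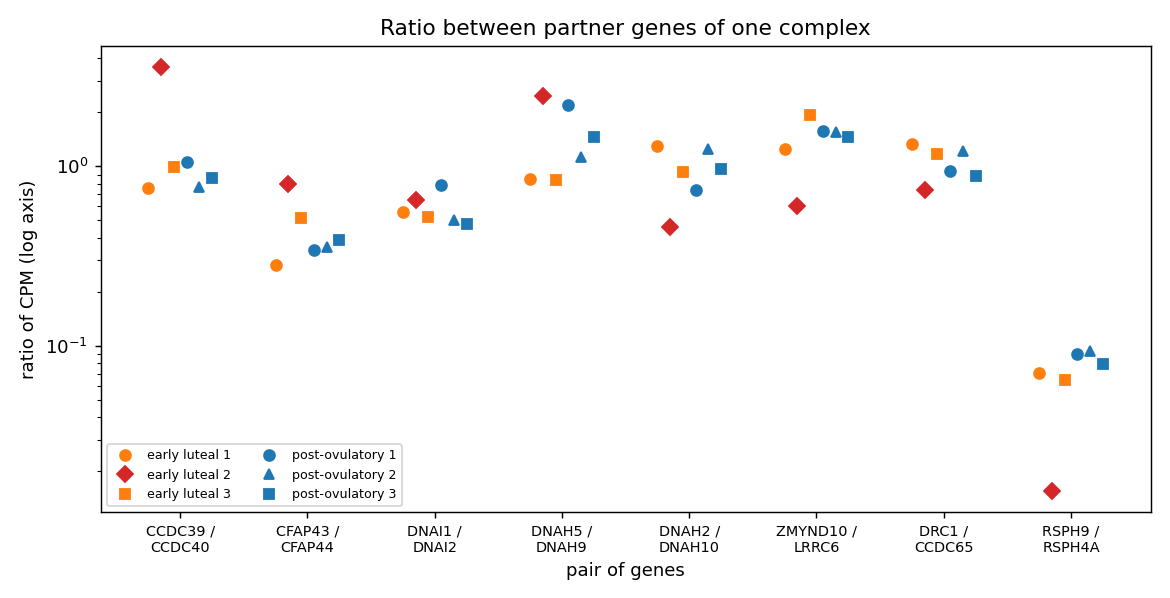
Ratio of CPM between 2 members of 1 complex in each library (log axis; early luteal in orange and red, post-ovulatory in blue; red diamonds, early luteal replicate 2). The pairs were chosen after the values were seen. The diamond lies outside the other 5 libraries in 7 of 8, most clearly for CCDC39 to CCDC40 at 3.57 and RSPH9 to RSPH4A at 0.0155.

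The departure of early luteal replicate 2 went weakly with gene length in the whole table, and the axoneme genes shared this. Across 11898 tested genes, of 12783 with a symbol, the deviation of that library from the mean of the other 5 correlated with the log10 length of the gene in RefSeq (Sscrofa11.1), from end to end with introns (Pearson r = 0.30, Spearman rho = 0.33). Across 49 of the 50 members the values were r = 0.44 and rho = 0.38, and across 59 of the 70 other axoneme genes r = 0.43 and rho = 0.45. CFAP43, CCDC39, ARMC4 and DNAAF4, high in that library, span 128, 149, 187 and 100.5 kb, while CAPS, RSPH9 and DNAI2, low there, span 2.20, 16.5 and 23.8 kb. Several members went the other way: DNAH2 (104.5 kb) and DNAH9 (321 kb) were low, at -1.38 and -0.86 log2 units, and ROPN1L (15.3 kb) and CCDC65 (9.10 kb) were high, at 0.62 and 0.56 log2 units. These are descriptions across genes that share the same 6 libraries, and genes are not independent replicates. In 25 of the 49 members the span overlapped another RefSeq gene, such as TTC14 for CCDC39, SFR1 for CFAP43, RANBP3 for CAPS and RASSF1 for ZMYND10. No source used here gives the strand setting of the counting, and reads of such neighbours could be split or shared.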

How the data were processed

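Stranded poly-A libraries were sequenced as read pairs, per the labels' protocols. The build Sscrofa11.1 and the tools STAR, Trim Galore and FastQC 0.11.4 are named, without their roles, per the submitters' processing notes. How reads were counted, and with which annotation, is not given in the sources used here. The file the authors deposited holds raw counts for each Ensembl gene, without normalization. Its header lacks a tab, and its sample names were read in order. Symbols came from a table of identifiers, with newer symbols allowed, and positions from RefSeq (Sscrofa11.1), matched by symbol.

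The members and lists were chosen with earlier results of these data known. Stages were compared with the quasi-likelihood test of edgeR 4.0.16 (R 4.3.3, robust, two-sided), TMM scaling and filterByExpr, Benjamini-Hochberg adjusted over 17920 genes at 0.05. SEs were derived from the F statistic, and 95% intervals use edgeR's degrees of freedom. The common biological coefficient of variation was 0.485. CPM came from scaled library totals, and a count of 3 was 0.0957 to 0.404 CPM. Log2 CPM used a prior count of 2. Such a floor covers counting error only. Scripts were tested on simulated data.

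Named in full were, in each role, the member with the lowest p and the one with the highest mean CPM (no transcript lengths were used), the 5 with the largest fold change, and a fixed panel of regulators, OVGP1 and the 4 other axoneme genes with the lowest p; further members were added after their values were seen. Alternatives were DESeq2 1.42.0, DESeq2 size factors, upper quartile scaling, no filter, 1 CPM in 3 libraries, limma voom with sample quality weights (limma 3.58.1), the replicate number as a block, and each library left out. Promoter motifs were not analysed here.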

Additional observations from a re-analysis of the deposited data

How the results depend on the processing

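No alternative called an axoneme gene: the count of members past the threshold was 0 in the main analysis and under all 13 alternatives, and no named member had an adjusted p under 0.284 in any of them. Over all genes, 0 were called in the main analysis, 174 by DESeq2, 9 by limma voom with sample quality weights and 8 with no filter, and 0 without each library in turn. The weighted limma voom fit gave 3 of the 50 members (CFAP70, DNAH3 and DNAH5) an unadjusted p under 0.05. It did so for 2548 of all 17920 tested genes. Leaving out each library in turn gave 0 to 1 members. These were CFAP43 without early luteal replicate 1 (2138 of 18534 tested genes) and RSPH3 without post-ovulatory replicate 2 (1165 of 18631). Members lower in early luteal tissue numbered 17 to 33 and the median log2 fold change lay between -0.15 and 0.23 without each library in turn. It was 0.067 with upper quartile scaling, with 20 members lower, and -0.053 with no filter, with 31 lower. Signs of 9 of the 18 members named in full turned under some alternative, none of them past the threshold. Without each library in turn the log2 fold change lay between -0.044 and 0.40 for AK7, -0.14 and 0.71 for ARMC4, -0.14 and 0.73 for CCDC39, -0.15 and 1.16 for CFAP43, -0.26 and 0.22 for CFAP44, -0.90 and 0.32 for DNAAF1, -0.28 and 0.20 for DNAI2, -0.35 and 0.055 for DNALI1, and -0.23 and 0.65 for RSPH4A. The sign turned without early luteal replicate 2 for all of these but DNAAF1, whose sign turned without post-ovulatory replicate 1. Signs also turned without post-ovulatory replicate 1 for DNALI1, replicate 2 for CFAP44 and RSPH4A, and replicate 3 for DNAI2 and RSPH4A. With no filter it was -0.0078 for CFAP44, and with limma voom and quality weights -0.18 for CFAP44, 0.0087 for DNAI2 and 0.048 for DNALI1. Among members whose sign held, the log2 fold change without each library in turn lay between -0.97 and -0.13 for RSPH3, -0.74 and -0.13 for ZMYND10, -0.57 and -0.018 for CFAP45, -1.13 and -0.20 for RSPH9 and -0.35 and -7.24e-05 for DNAH10, each nearest 0 without post-ovulatory replicate 1. Of the others named in full whose sign held, CFAP54 (0.089 to 0.28) and CFAP70 (0.38 to 0.68) were nearest 0 without early luteal replicate 2. DNAH3 (0.38 to 0.58) and DNAH5 (-0.69 to -0.29) were nearest 0 without early luteal replicate 3. The cause of these shifts was not tested. Whether the replicate numbers of the labels pair the libraries is not known. Between libraries of like number, deviations from stage means correlated at 0.052, -0.082 and 0.13. With 3 libraries a stage, of which early luteal replicate 2 was far from the rest, these values cannot decide it. A fit that took the replicate number as a block called 0 genes and gave the members a median of 0.025, with 24 lower. With 3 libraries a stage, the 95% intervals of 27 of the 50 members lay within 2-fold, and those of RSPH9 and CFAP43 reached -2.14 and 2.02 on the log2 scale.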
